A study of Mus musculus with 7 samples.

Results

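A set of 6 SR splicing factor genes (Srsf1, Srsf2, Srsf3, Srsf5, Srsf6 and Srsf7) and the 4 Clk kinase genes (Clk1, Clk2, Clk3 and Clk4) were examined in stressed mouse embryonic fibroblasts (MEFs). They were chosen by symbol, and the 10 symbols stood on 11 of the 49382 rows in the table of expression values. Each row is counted as a gene below. The experiment measured RNA by sequencing in 7 libraries, 1 from untreated control MEFs and 1 from each of 6 stress conditions, and asked how fibroblasts adjust gene expression when their environment is disturbed. All 7 libraries came from wild type primary MEFs, prepared from embryos of day 13.5 to 14.4 after the head and the red tissue were discarded, and used at passages 3 to 7. MEFs were kept for 10 h in medium without glucose (glucose depletion), in medium without glutamine (glutamine depletion) or at 0.1% oxygen (hypoxia). ER stress was 10 h with 1 uM thapsigargin, which blocks the calcium pump of the endoplasmic reticulum. Oxidative stress was 3 h with 10 uM arsenite, and osmotic stress was 3 h with 100 mM added NaCl. Durations thus differ between conditions, so condition and time cannot be told apart for the 3 h libraries. With 1 library per condition, the spread between replicates is unknown, so differences are given as values without any test.

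SR proteins bind exons through an RNA recognition motif and recruit the splicing machinery through a tail rich in arginine and serine, the RS domain. CLK kinases sit in the nucleus and phosphorylate the RS domain, which releases SR proteins from nuclear speckles, while the SRPK kinases phosphorylate the same domain in the cytoplasm so that the importer transportin-SR (Tnpo3) carries the proteins into the nucleus. Many SR genes hold a "poison" exon that, when included, places an early stop codon in the message and sends it to nonsense-mediated decay (NMD), and CLK genes make shortened messages that skip a coding exon or keep introns in the nucleus.

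The exons behind these alternatives are shown because a level summed over a gene's transcripts, as used here, cannot separate productive messages from those marked for decay. Transcripts and exons are taken here from GENCODE M21, another release than the Ensembl 90 cDNA behind the TPM. In M21 the 10 genes had 94 transcripts. Of these, 31 were protein coding, 16 were classed as NMD targets, 36 kept an intron and 11 were other processed transcripts. Clk1 had 1 protein-coding transcript among 13, and Srsf3 had 1 among 10. In 3 SR genes an NMD transcript carried an exon that held its stop codon and overlapped no exon of the coding transcript it was compared with. This exon is printed from its first base to the premature stop codon, which is in capitals. NMD transcripts of Srsf1 (2), Srsf2 (2) and Srsf5 (1) held no exon of this kind. Whether they differ by exons of another kind was not examined. The Srsf3 exon was 456 bases long (transcript Srsf3-201 against Srsf3-202) and was read on the + strand of GRCm38 at chr17:29039454-29039487. The Srsf6 exon was 268 bases long (Srsf6-201 against Srsf6-203), + strand, chr2:162932815-162932966. The Srsf7 exon was 460 bases long (Srsf7-203 against Srsf7-201), − strand, chr17:80205054-80205081.
Srsf3: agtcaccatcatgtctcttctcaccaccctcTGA
Srsf6: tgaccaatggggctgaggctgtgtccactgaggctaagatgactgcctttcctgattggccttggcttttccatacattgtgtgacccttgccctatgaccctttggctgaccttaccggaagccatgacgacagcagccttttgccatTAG
Srsf7: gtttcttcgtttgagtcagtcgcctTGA

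In each of the 4 kinase genes an NMD transcript skipped a coding exon whose length left a remainder of 1 base when divided into codons, so that skipping shifts the reading frame. These exons are printed whole, because they show how closely the 4 genes are related: capitals in Clk1 and Clk4 mark the 85 of 91 bases (93.4%) that were the same in that pair. The Clk1 exon lay on the − strand of GRCm38 at chr1:58420121-58420211 (skipped in Clk1-210, present in Clk1-201). The Clk2 exon, 85 bases long, lay on the + strand at chr3:89169618-89169702 (skipped in Clk2-204, present in Clk2-202), and that of Clk3, 97 bases long, on the − strand at chr9:57758627-57758723 (skipped in Clk3-209, present in Clk3-201). The Clk4 exon lay on the + strand at chr11:51273078-51273168. It was absent from Clk4-204 and present in Clk4-201, but in Clk4-204 the stop codon came before the skipped exon, unlike the other 3 genes.
Clk1: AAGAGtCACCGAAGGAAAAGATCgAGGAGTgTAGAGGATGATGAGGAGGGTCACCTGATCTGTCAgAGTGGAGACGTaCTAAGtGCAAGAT
Clk4: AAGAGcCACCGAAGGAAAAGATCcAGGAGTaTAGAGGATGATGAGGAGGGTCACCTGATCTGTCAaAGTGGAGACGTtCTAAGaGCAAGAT
Clk2: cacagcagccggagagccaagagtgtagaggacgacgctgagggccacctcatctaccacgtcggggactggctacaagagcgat
Clk3: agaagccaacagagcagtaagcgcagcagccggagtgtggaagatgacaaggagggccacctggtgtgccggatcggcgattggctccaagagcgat

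Levels are TPM, the share of a library taken by a gene's transcripts after correction for their length and scaling to 1000000, so they can be compared between genes. TPM keeps no read count, so the depth behind a value is unknown. Changes are differences of log2(TPM + 1) from the control, a scale that understates the change of genes with low levels, and a difference of more than 2-fold on it (beyond 1 or -1) was counted. As the background, 12909 genes whose average over the libraries reached 2 TPM were kept, and all 10 genes passed with room to spare, since their lowest value was 10.2 TPM. The libraries had 19819 to 21154 genes above 0 TPM, and genes of the mitochondrial genome took 5.09% to 9.25% of TPM. All 8 fibroblast markers were kept in these libraries, with a summed level of 6160 to 12781 TPM that was lowest in ER stress. Leukocyte markers summed to 6.53 to 12.7 TPM, with 1 of 6 kept (Cd68) and the defining marker Ptprc at 0 to 0.280 TPM. The summed markers were 3.50 to 8.04 TPM for endothelial cells, 4.22 to 11.9 for epithelial cells, 13.9 to 36.6 for skeletal muscle and 0 to 1.01 for erythroid cells. In the first 3 of these lists, 1 gene was kept: Kdr (1.92 to 4.23 TPM), Krt18 (3.57 to 10.6 TPM) and Des (13.6 to 35.9 TPM). The other 4 markers of each stayed under 2 TPM in every library. In bulk libraries, fewer cells of a type and less RNA per cell cannot be told apart.

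The 6 SR genes were among the more abundant messages of the control MEFs, and each exceeded the kinases except that Clk3 lay above Srsf7. In the control library the levels ran from Srsf2 (179 TPM), Srsf5 (176 TPM), Srsf3 (169 TPM), Srsf6 (151 TPM) and Srsf1 (114 TPM) down to Clk3 (69.1 TPM), Srsf7 (64.0 TPM), Clk1 (44.7 TPM), Clk2 (31.5 TPM) and Clk4 (29.8 TPM). Srsf2 stood at percentile 93.2 of the kept genes in the control and Clk4 at percentile 61.2. Neighbours such as Srsf2 and Srsf5, or Clk2 and Clk4, were a few TPM apart, and 1 library cannot rank them. The place of Srsf1 depends on another point: its symbol stood on 2 rows (ENSMUSG00000018379 and ENSMUSG00000098301) with the same value in every library. All rows, both of these included, summed to 1000000 TPM in every library. The 2 rows are thus separate parts of the total, and not 1 value printed again. Summed, they gave 228 TPM in the control, which makes Srsf1 the most abundant of the 10 genes instead of the fifth. The first row alone is used here, so the levels of Srsf1 and the SR totals given are too low. The table held 219 symbols on several rows, 104 of them with identical rows above 0, and the reason was not tested.

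**Figure D1:**
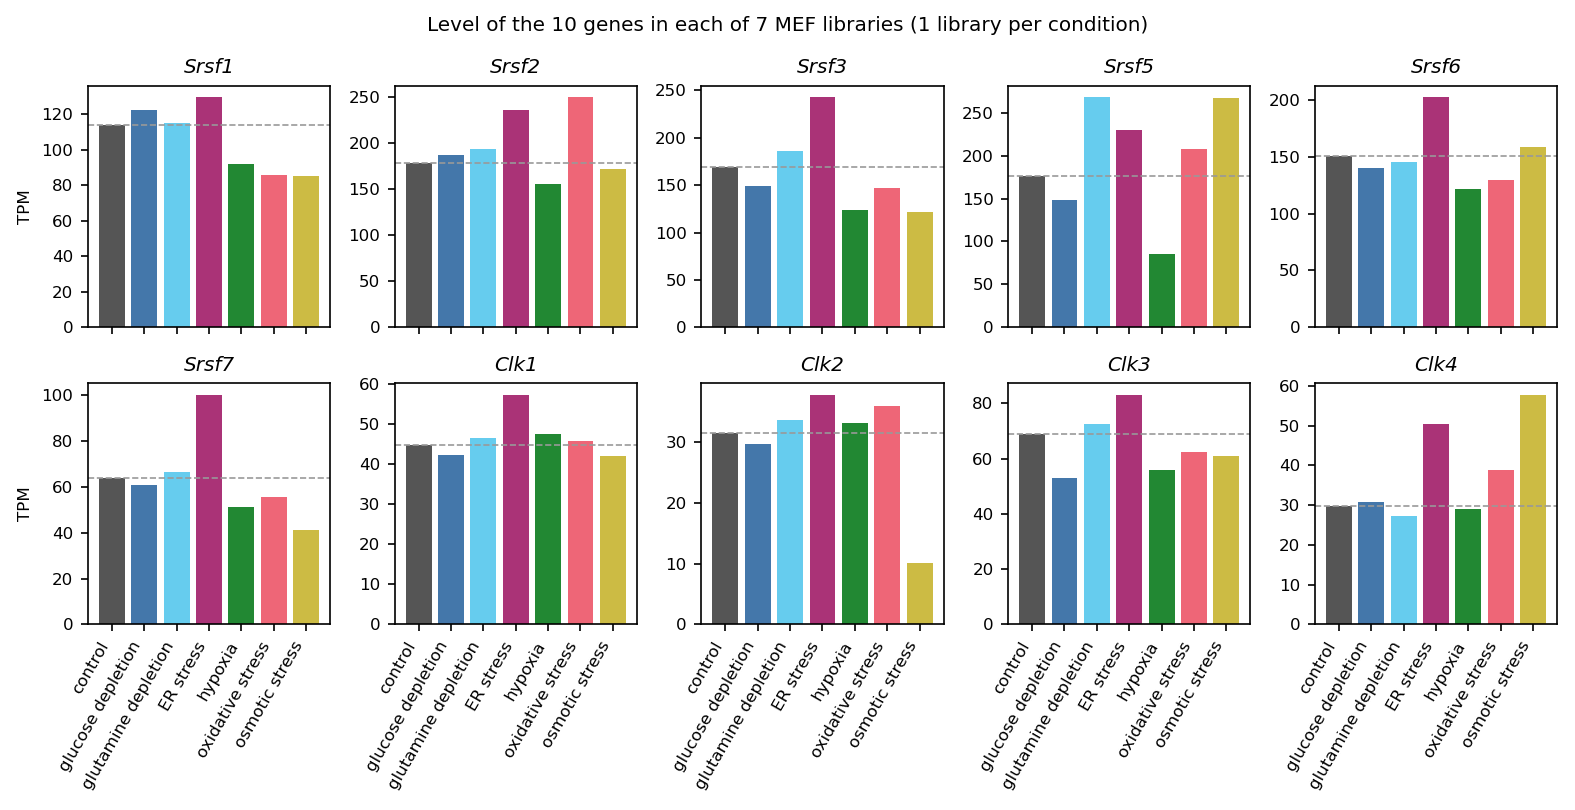
TPM of each of the 10 genes (1 panel a gene, its own vertical axis from 0) in the 7 MEF libraries, 1 bar a library, with the control level as a dashed line. Srsf1 is shown by its first row alone. Srsf5 in hypoxia (84.8 TPM) and Clk2 in osmotic stress (10.2 TPM) are the bars farthest below the control line as a ratio to it, and Clk4 in osmotic stress (57.8 TPM) is the farthest above as a ratio.

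Among the SR genes, Srsf5 varied most. This SR protein, which carries a pair of RNA recognition motifs (chromosome 12, bases 80945504 to 80950507, + strand, GRCm38) had 176 TPM in the control, 149 in glucose depletion, 268 in glutamine depletion, 230.4 in ER stress, 84.8 in hypoxia, 208 in oxidative stress and 267 in osmotic stress. Hypoxia was thus the lowest library, and glutamine depletion and osmotic stress were the highest, with a highest level 3.16 times the lowest. The log2 change was -1.05 in hypoxia, 2.07-fold below the control in TPM + 1, against 0.60 in both glutamine depletion and osmotic stress. Its change in hypoxia stood at percentile 2.41 of all kept genes, and at percentile 1.26 of the genes that averaged 10 TPM or more. This value lay just past the 2-fold line and came to -0.999, just inside it, after centring on the median of the kept genes.

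Srsf7 and Srsf3, SR proteins that also act in mRNA export, had the next widest ranges of the SR genes, and both were highest in ER stress and lowest in osmotic stress. For Srsf7 (chromosome 17, bases 80200080 to 80207307, − strand) the levels were 64.0 TPM in the control, 60.7 in glucose depletion, 66.8 in glutamine depletion, 100.3 in ER stress, 51.3 in hypoxia, 55.5 in oxidative stress and 41.1 in osmotic stress. For Srsf3 (chromosome 17, bases 29032628 to 29043373, + strand) they were 169, 149, 186, 243, 124, 147 and 121 TPM in the same order. The ER stress changes were 0.64 for Srsf7 and 0.52 for Srsf3 (log2), and the osmotic stress changes were -0.63 and -0.48. None of these passed 2-fold. Of all pairs among the 10 genes, these 2 had the most similar profiles, with a root mean square difference of 0.0997 between their log2(TPM + 1) values after each was centred on its own mean over the 7 libraries.

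Srsf2, a nuclear SR protein that binds exonic enhancers, differed from the others in being highest with arsenite. Its levels (chromosome 11, bases 116849901 to 116853094, − strand) were 179 TPM in the control, 188 in glucose depletion, 194 in glutamine depletion, 236 in ER stress, 155 in hypoxia, 249.5 in oxidative stress and 172 in osmotic stress. The oxidative stress value was 0.48 above the control on the log2 scale, at percentile 91.1 of the kept genes, while Srsf1 stood at -0.41 in the same library. The ratio of Srsf2 to Srsf1 was 2.91 in oxidative stress and 1.57 in the control with Srsf1 counted once. With both Srsf1 rows summed it was 1.46 and 0.783, so by the sum Srsf1 was the more abundant of the pair in the control. Oxidative stress had the highest ratio either way.

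By its first row alone, Srsf1, the founding SR protein, also called ASF/SF2, had its lowest levels in both 3 h treatments. It measured (chromosome 11, bases 88047373 to 88053755, + strand) 114 TPM in the control, 122 in glucose depletion, 115 in glutamine depletion, 129.6 in ER stress, 92.1 in hypoxia, 85.6 in oxidative stress and 85.2 in osmotic stress. Srsf6, which belongs to the same branch of the family as Srsf5, measured (chromosome 2, bases 162931528 to 162937121, + strand) 151 TPM in the control and 141, 146, 202, 121, 129.7 and 159 TPM in glucose depletion, glutamine depletion, ER stress, hypoxia, oxidative stress and osmotic stress. The largest log2 changes were -0.42 for Srsf1 (osmotic stress) and 0.42 for Srsf6 (ER stress), so both stayed within 1.5-fold of the control in every condition.

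Among the kinases, Clk2 showed the largest difference of all 60 values (10 genes in 6 conditions). Clk2 (chromosome 3, bases 89164795 to 89176921, + strand) lay between 29.7 and 37.8 TPM in 6 libraries: 31.5 TPM in the control, 29.7 in glucose depletion, 33.7 in glutamine depletion, 37.8 in ER stress, 33.1 in hypoxia and 35.9 in oxidative stress. In osmotic stress it stood at 10.2 TPM, below every other library. The log2 change there was -1.54, 2.91-fold below the control in TPM + 1, while its other 5 changes were between -0.08 and 0.26. That placed Clk2 at percentile 3.56 of the kept genes in osmotic stress, and at percentile 1.63 of those that averaged 10 TPM or more.

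Clk4 differed from the control in the opposite direction in the same library. The gene (chromosome 11, bases 51261730 to 51281766, + strand) had 29.8 TPM in the control, 30.7 in glucose depletion, 27.4 in glutamine depletion, 50.5 in ER stress, 28.9 in hypoxia, 38.8 in oxidative stress and 57.8 in osmotic stress. The osmotic stress value was 0.93 above the control on the log2 scale (percentile 96.6 of the kept genes), just inside 2-fold, and it came to 1.05, past 2-fold, after centring. Its ER stress value was 0.74 above and its oxidative stress value 0.37 above, and the other 3 changes were within 0.12 of the control.

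Clk1, the closest relative of Clk4 in sequence, varied least of the 10 genes. Clk1 (chromosome 1, bases 58410189 to 58424066, − strand) measured 44.7 TPM in the control and 42.2, 46.4, 57.3, 47.4, 45.9 and 42.1 TPM in glucose depletion, glutamine depletion, ER stress, hypoxia, oxidative stress and osmotic stress, so the highest level was 1.36 times the lowest. Clk3, the most abundant of the kinases in the control (chromosome 9, bases 57750624 to 57765860, − strand), measured 69.1 TPM there and 53.1, 72.5, 83.2, 55.8, 62.5 and 61.1 TPM in the same conditions. Its lowest value was in glucose depletion (log2 change -0.37), where the other 9 genes were between -0.24 and 0.10.

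Over the 6 conditions together, 2 of the 60 values passed 2-fold (Srsf5 in hypoxia and Clk2 in osmotic stress), where 9.52% of the values of all kept genes did and 6.44% of those of genes that averaged 10 TPM or more. Past 1.5-fold were 8 of the 60, against 22.2% and 17.3%, and 29 were within 0.2 of the control on the log2 scale, against 40.6% and 44.5%. Set beside genes of like level, these counts are near the background. The remaining 8 genes passed 2-fold in no condition, while 34.4% of all kept genes, and 25.9% of those averaging 10 TPM or more, passed it in at least 1. The other values beyond 1.5-fold were Srsf5 in glutamine depletion and osmotic stress, Srsf7 and Clk4 in ER stress, and Srsf7 and Clk4 in osmotic stress. The control library enters every comparison, so the 6 comparisons are not independent of each other.

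In ER stress all 10 genes lay above the control, by 0.18 (Srsf1) to 0.74 (Clk4), with a median log2 change of 0.39 against 0 for all kept genes. Of all kept genes, 49.9% were higher in that library. The summed level of the 6 SR genes, with Srsf1 counted once, was 1141 TPM against 853 in the control. That of the 4 kinases was 229 against 175. None of the 10 passed 2-fold in ER stress, where 8.60% of all kept genes were above and 11.0% below the control by that much, the widest spread of the 6 conditions. Summed fibroblast markers were lowest in the same library (6160 TPM against 11389 in the control), and their part in these values was not tested.

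In hypoxia the SR genes lay below the control, all 6 of them, by 0.20 (Srsf2) to 1.05 (Srsf5) on the log2 scale, with a median of -0.31 against -0.05 for all kept genes. Their summed level, with Srsf1 counted once, was 629 TPM, the lowest of the 7 libraries, against 853 in the control. The kinases were split, with Clk1 and Clk2 at 0.08 and 0.07, Clk4 at -0.04 and Clk3 at -0.30. Of the kept genes, 55.5% were lower and 42.8% higher in hypoxia. Counted at 2-fold, 1 of the 10 genes was below the control and 0 above, against 2.64% and 3.57% of all kept genes.

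In osmotic stress the 10 genes were spread most widely, from -1.54 (Clk2) to 0.93 (Clk4), with 7 below the control and 3 above. Of all kept genes, 61.6% were lower and 36.7% higher there. After centring on the median of the kept genes (-0.12), 5 of the 10 genes were above and 5 below. One gene passed 2-fold below the control and 0 above, where 8.76% and 3.08% of all kept genes did. Among genes that averaged 10 TPM or more, which hold all 10 members, the share below was 4.92% and the share above 1.79%.

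In oxidative stress 5 genes were above the control and 5 below, from -0.41 (Srsf1) to 0.48 (Srsf2), in a library where 32.6% of kept genes were higher and the median kept gene was at -0.16. After centring, 6 were above, all 4 kinases among them. None passed 2-fold, against 3.94% of all kept genes above and 4.85% below. Glutamine depletion had 8 of 10 genes above the control (38.3% of the kept genes were), but apart from Srsf5 all changes were between -0.12 and 0.14. None passed 2-fold there, against 3.21% of kept genes above and 3.21% below. Glucose depletion had 3 of 10 genes above the control, against 44.5% of the kept genes, with a range from -0.37 (Clk3) to 0.10 (Srsf1). Again none passed 2-fold, against 1.83% of kept genes above and 2.41% below.

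**Figure D2:**
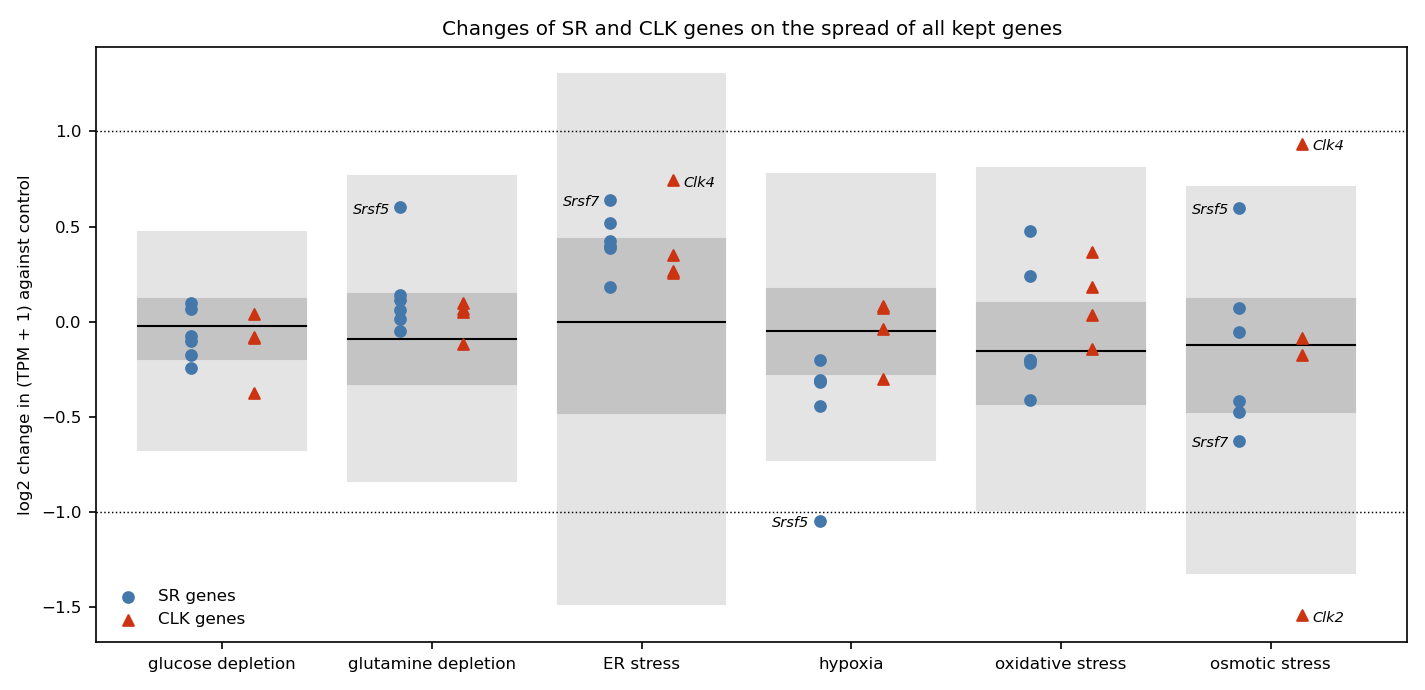
Log2 change in (TPM + 1) against the control for the 6 SR genes (circles) and 4 kinase genes (triangles) in each condition, on bands that hold the middle 50% (dark) and 90% (light) of the 12909 kept genes, with their median as a line and 2-fold as dotted lines. The 2 symbols past a dotted line are Srsf5 in hypoxia (-1.05) and Clk2 in osmotic stress (-1.54), and all 10 lie above 0 in ER stress.

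The make-up of the kinase family in osmotic stress differed from that in the other libraries because Clk2 and Clk4 lay on opposite sides of the control. Summed over the 4 genes the level was 171 TPM, close to the 175 TPM of the control. Yet Clk2 made up 5.93% of it, the lowest share of Clk2 in any library. Clk4 made up 33.8%, the highest share of Clk4 in any library, with Clk3 at 35.7% in osmotic stress. The ratio of Clk4 to Clk2 was 5.70 in osmotic stress and 0.812 to 1.34 in the other 6 libraries. Clk1 and Clk3, taken against Clk2, gave ratios of 4.15 and 6.02 in osmotic stress, and of 1.28 to 1.52 and 1.69 to 2.20 in the others. The ratio of Clk4 to its close relative Clk1 was 1.37 against 0.590 to 0.881. A ratio of TPM does not depend on how a library was scaled, but with 1 library per condition these ranges describe the libraries and carry no estimate of error.

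Among the SR genes, Srsf5 had the widest range of shares, from 13.5% of the summed level in hypoxia to 31.6% in osmotic stress. Against Srsf3 it stood at 0.685 in hypoxia, 1.04 in the control and 2.21 in osmotic stress. Against Srsf7 it stood at 1.65, 2.75 and 6.50. The ratio of Srsf3 to Srsf7 was steadier, at 2.41 to 2.79 in 6 libraries and 2.95 in osmotic stress. The shares of the other SR genes ran from 19.8% to 28.5% for Srsf2, 14.3% to 21.3% for Srsf3, 14.8% to 19.3% for Srsf6, 9.78% to 15.1% for Srsf1 and 4.86% to 8.79% for Srsf7. These shares count Srsf1 once. With its rows summed, Srsf1 made up 23.6% instead of 13.4% of the SR total in the control and 17.8% to 26.3% over the libraries, and the range of Srsf5 was 11.8% (hypoxia) to 28.7% (osmotic stress).

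**Figure D3:**
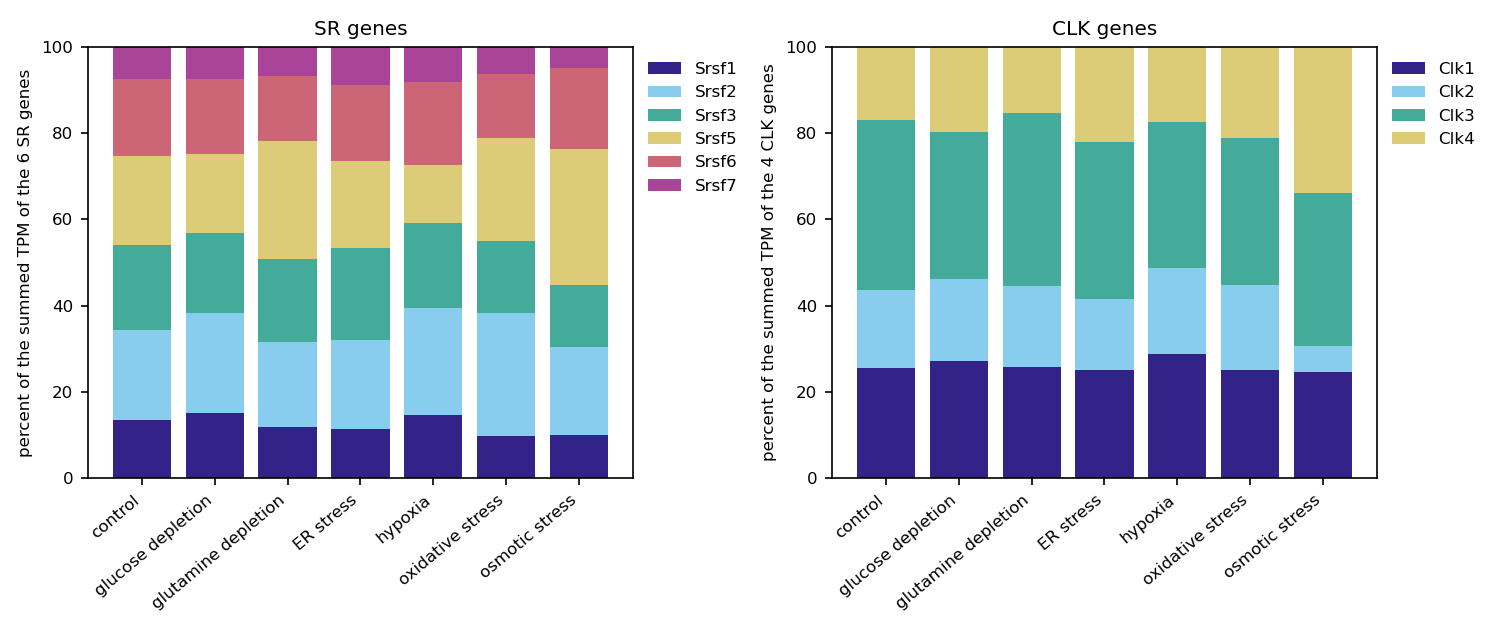
Share of each gene (percent) in the summed TPM of the 6 SR genes (left, Srsf1 counted once) and the 4 kinase genes (right), 1 bar a library. Clk2 makes up 5.93% and Clk4 33.8% of the kinase total in osmotic stress, and Srsf5 ranges from 13.5% (hypoxia) to 31.6% (osmotic stress) of the SR total.

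The surrounding splicing machinery was set beside the 10 genes in 6 lists of 82 genes, of which 80 were kept and Srsf12 and Srpk3 were not. One of the 80 passed 2-fold in any condition, against the 34.4% of all kept genes given above (25.9% at 10 TPM or more). This was Luc7l, which codes for a U1 snRNP-associated protein with an RS-rich tail, had 41.2 TPM in the control and 16.0 in osmotic stress (log2 change -1.31), the condition in which Clk2 also lay below the control. In ER stress 51 of the 80 genes were above the control with a median of 0.13 (49.9% and 0 for all kept genes), and in hypoxia 59 were below with a median of -0.18 (55.5% and -0.05 for all kept genes). In the other conditions the numbers above the control were 49 (glucose depletion), 34 (glutamine depletion), 23 (oxidative stress) and 36 (osmotic stress), where 44.5%, 38.3%, 32.6% and 36.7% of all kept genes were above. The medians of the 80 in these conditions were 0.02, -0.02, -0.13 and -0.03, and those of all kept genes -0.02, -0.09, -0.16 and -0.12.

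Of the other SR family genes 4 were kept, and all 4 were below the control in osmotic stress. Their median there was -0.36 against -0.12 for all kept genes, of which 61.6% were below. Srsf10, an SR protein that represses splicing when dephosphorylated, was at 105 TPM in the control, 164 in ER stress (0.63), 76.9 in oxidative stress (-0.45) and 80.8 in osmotic stress (-0.38). Srsf4 was at 0.35 in ER stress and -0.35 in osmotic stress, and Srsf9 at -0.22 and -0.36. Srsf11 was within 0.23 of the control in every condition.

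Of 13 SR-like regulators, 10 were above the control in ER stress and 10 below in hypoxia. Of all kept genes, 49.9% were above in ER stress and 55.5% below in hypoxia. Srrm1, counted as above in ER stress, was at 100.16 TPM in both libraries, so it did not differ. Tra2b, an SR-like activator of exon inclusion with a poison exon of its own, had 102 TPM in the control and 56.8 in osmotic stress (-0.83), and its paralog Tra2a had 91.2 and 61.4 (-0.56). Son, a scaffold of nuclear speckles, stayed within 0.18 of the control in every condition. Srek1, an RS-domain protein, was below the control in all 6 conditions, by 0.38 (oxidative stress) to 0.93 (osmotic stress), which makes its control value of 53.0 TPM the highest of the 7.

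Among the other kinases and the importer of SR proteins, 4 of 5 were above the control in ER stress, as were 49.9% of all kept genes. Srpk1, the cytoplasmic SR kinase, had 48.6 TPM in the control, 73.5 in ER stress (0.59) and 38.7 in osmotic stress (-0.32), whereas Srpk2 stood at -0.20 and 0.08 in these libraries. Tnpo3 stood at 0.37 in ER stress and -0.21 in osmotic stress.

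The 20 hnRNP genes, whose products often oppose SR proteins, had medians within 0.19 of 0 in every condition. Hnrnpa1, a repressor of exon inclusion, was at 396 TPM in the control and 251 in ER stress (-0.65). In that library the list was split, with 9 genes above the control and 11 below, from -0.98 to 0.83. Hnrnpu was highest in osmotic stress (181 TPM against 136, 0.40). Of the 24 core spliceosome genes, 19 were below the control in hypoxia and 20 in oxidative stress, with medians of -0.19 and -0.18. For all kept genes the medians were -0.05 and -0.16. In hypoxia 55.5% of all kept genes were lower, and in oxidative stress 32.6% were higher. Of the 14 NMD factors, which set how fast transcripts with poison exons are lost, 10 were below the control in hypoxia (median -0.21). In ER stress 11 of the 14 were above it (median 0.18), where 49.9% of all kept genes were, with a median of 0. Upf1, the central NMD helicase, was at -0.36 in hypoxia and within 0.09 of the control elsewhere, and Smg5 was at -0.34 in hypoxia.

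**Figure D4:**
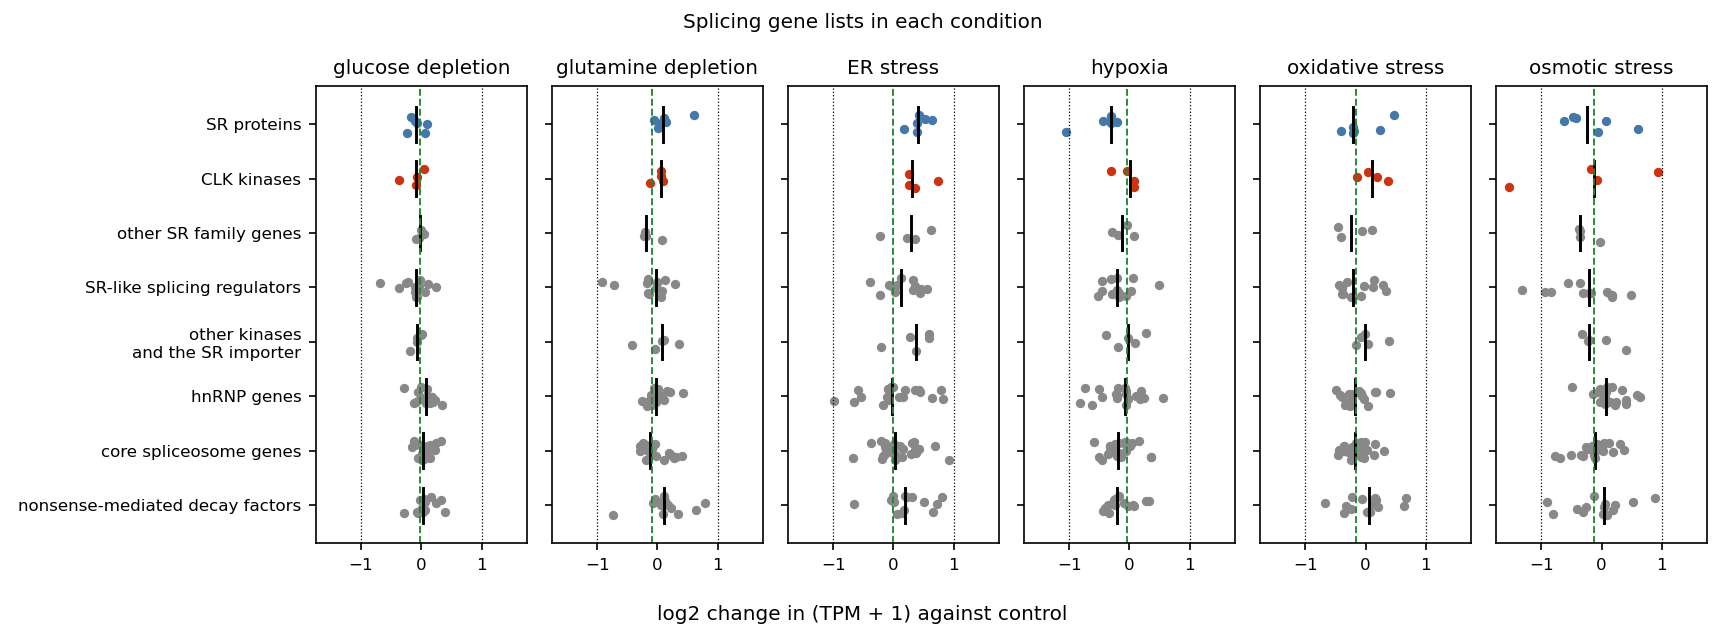
Log2 change in (TPM + 1) against the control for each kept gene (1 dot a gene) of the 2 member families and the 6 further splicing lists, 1 panel a condition, with list medians as black bars, the median of all kept genes as a dashed green line and 2-fold as dotted lines. Both member families sit right of 0 in ER stress, where the SR median is 0.41, and Clk2 (-1.54) and Luc7l (-1.31) are the dots left of the lower line in osmotic stress.

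To place each gene among all others, profiles of log2(TPM + 1) over the 7 libraries were centred on their own mean and compared by root mean square difference with those of other genes that averaged 10 TPM or more, each symbol taken once (8765 genes). The nearest to Clk2 were Nrbf2 (0.109), Nfya (0.122) and Dctn4 (0.131). All 3 shared its low value in osmotic stress: Nrbf2, an autophagy factor, had 26.6 TPM in the control and 8.35 in osmotic stress, Nfya, a subunit of the CCAAT-binding factor NF-Y, had 47.9 and 19.2, and the dynactin subunit Dctn4 had 37.4 and 11.6. Such a profile in 7 libraries is a description of likeness and nothing more.

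The nearest profile to Srsf5 was that of another RNA-binding protein gene, Hnrnpdl, at 0.165, followed by Tnfrsf12a (0.185) and Gfra1 (0.190). Hnrnpdl had 108 TPM in the control, 87.8 in glucose depletion, 145 in glutamine depletion, 168 in ER stress, 64.3 in hypoxia, 120.4 in oxidative stress and 168 in osmotic stress. Like Srsf5 it was thus lowest in hypoxia. The nearest genes were Orai2, Atl2 and Zcchc2 for Clk4 (0.101 to 0.102), 1700037H04Rik, Nap1l4 and Uba3 for Clk1 (0.0303 to 0.0381), and Dhx33, Ogfr and Pum2 for Clk3 (0.0750 to 0.0856).

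For the other SR genes the nearest were Plekhb2, Polr2m and Hspa14 (Srsf1, 0.0426 to 0.0605), Akirin1, Hmgxb3 and Psmd11 (Srsf2, 0.0685 to 0.0787), Slc7a6os, Syde1 and Ttll4 (Srsf3, 0.0561 to 0.0818), Gm16286, Aamp and Zmpste24 (Srsf6, 0.0404 to 0.0513), and Eif3d, Timm10 and Polr3a (Srsf7, 0.0588 to 0.0629). Flat profiles have many near neighbours, so small differences mark genes that varied little as much as genes that varied alike.

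Sequence shared with other genes could bear on some of these values, which was not tested. Of the 31-base words in the annotated transcripts, 0.868% of those of Clk2, 1.01% of Clk1 and 2.10% of Clk4 also occurred in another gene, with 36 words common to Clk1 and Clk4. These are shares of annotated sequence, and how many reads fell on it was not tested. Shared words were 1.22% for Srsf1, 2.43% for Srsf7 and 0% for Srsf6. All these words came from GENCODE M21, and not from the Ensembl 90 cDNA behind the TPM. The identifier of the second Srsf1 row was not found in M21, so the share of Srsf1 leaves that row out. What the 2 Srsf1 rows share was not tested. For Srsf5 (14.2%) and Srsf3 (13.9%) the gene sharing most was Gm12966, at 0 to 0.468 TPM, and Gm12355, at 0 to 1.12 TPM. Gm12966 held 554 of the 599 shared words of Srsf5, and Gm12355 held 811 of the 1127 of Srsf3. Shared words of Srsf5 occurred in 912 other genes and those of Srsf3 in 3915. Those of Clk2, Clk1 and Clk4 occurred in 787, 1090 and 305. The levels of most of these genes were not examined. Srsf2 (23.1%) overlapped exons of Mettl23 (460 bases) and Mfsd11 (288 bases) on the opposite strand, and Clk3 (14.9%) overlapped 1284 exon bases of Edc3. The quantification is described as run at default settings, which do not use strand, so reads in these overlaps cannot be assigned by it to one gene or the other from position alone. Edc3 itself was at 9.78 TPM in the control and 4.09 in osmotic stress, and its part in the value of Clk3 there (-0.17) was not tested. Mfsd11 was at 59.4 TPM in the control, 71.9 in ER stress and 35.1 in oxidative stress. Mettl23 was at 18.6, 8.61 and 12.3 TPM in the same libraries. Their part in the values of Srsf2 was not tested.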

How the data were processed

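MEF RNA was sequenced with paired 76 base reads. The authors quantified the reads with Kallisto (0.43.1 per the submitters' processing notes) at default settings against cDNA of GRCm38 (Ensembl 90) and deposited TPM summed per gene, 1 column a library. Library groups came from the labels, and 0 sample columns were left unused. From the deposited TPM, log2(TPM + 1) minus the control was computed for 49382 rows, each counted as a gene. Of these, 12909 with a mean of at least 2 TPM were kept. More than 2-fold was counted, and no test was made. The genes and lists, and the rule for named genes, were chosen with earlier results of these data known. The rule names all 10 genes, list genes past 2-fold (up to 8), 14 other list genes, and the 3 nearest profiles. Genes outside it (Srek1, Srrm1, Edc3, Mettl23, Mfsd11, Hnrnpdl's values and marker genes) were named after their values were seen. Srsf1 was counted once. Locations, overlaps, 31-base words and exon sequences came from GENCODE M21 (GRCm38). Alternatives were pseudocounts of 0.1 and 5 TPM, filters of none and 10 TPM, centring, mitochondrial genes removed, 1.5-fold and 3-fold, another reference, protein-coding genes and summed Srsf1 rows. Scripts were tested on simulated data. The tools were matplotlib 3.10.9, pandas 2.3.3, numpy 2.4.6 and Python 3.11.15.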

Additional observations from a re-analysis of the deposited data

How the results depend on the processing

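With 1 library per condition, no library could be left out and no error estimated, and TPM hides the depth. No paired analysis was possible because each condition had 1 library. Of 132 recounts of the 10 genes under 11 alternatives, 124 stayed as reported and 8 did not. Centring on the median of the kept genes took the hypoxia count below the control from 1 to 0 (Srsf5) and the osmotic stress count above it from 0 to 1 (Clk4). After centring, 2.41% and 3.64% of all kept genes passed 2-fold in these directions. At 1.5-fold the counts above were 2 of 10 in osmotic stress, 2 in ER stress and 1 in glutamine depletion. The shares of all kept genes above by that much were 6.56%, 19.0% and 7.47%. The count below in osmotic stress was 2, against 19.5% of all kept genes. At 3-fold in TPM + 1 the counts below in hypoxia and osmotic stress were both 0, against 1.45% and 3.37% of all kept genes. Of 360 recomputed log2 changes, 320 stayed within 0.1 and 40 did not, 20 of them under centring and 19 with the median of the other 6 libraries as the reference. The sign changed for 5 small values under centring (Srsf6 in glutamine depletion, Clk4 in hypoxia, Clk3 in oxidative stress, Srsf2 and Clk1 in osmotic stress) and for 3 with the other reference. Over all alternatives the log2 change of Clk2 in osmotic stress ran from -1.63 to -1.27 (5 TPM pseudocount), of Srsf5 in hypoxia from -1.36 to -0.999, and of Clk4 in osmotic stress from 0.85 to 1.05. The share of all kept genes more than 2-fold below the control in osmotic stress was 11.3% with a pseudocount of 0.1 TPM and 3.27% with 5 TPM, and in hypoxia 3.42% and 1.55%. At 1.5-fold these shares were 19.5% and 8.10%. In ER stress 10 of the 80 list genes lay above the control by that much instead of 0, against 19.0% of all kept genes. Protein-coding genes alone and summed Srsf1 rows were chosen after seeing the data. The sum moved no log2 change by more than 0.0021, but raised the share of Srsf1 in the SR total by over 1.5 times (13.4% to 23.6% in the control).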
